A study of Canis lupus familiaris with 17 samples.

Results

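The 7 genes described here belong to the response to glucocorticoids, the adrenal steroid hormones of which cortisol is the main one in dogs. They were chosen by symbol (FKBP5, TSC22D3, PER1, KLF9, ZBTB16, SGK1 and NR3C1), and each matched exactly 1 of the 20257 genes in all 17 count matrices. The list was proposed with results of these data already known, including the comparison of the groups and the spread across dogs, so the values below describe these genes and carry no independent support for their choice. Over all cells that were clustered, NR3C1 (ENSCAFG00000006293) was counted 146743 times and FKBP5 (ENSCAFG00000001343) 134144 times, in unique molecular identifiers (UMIs), which stand for captured RNA molecules. SGK1 (ENSCAFG00000000217) had 75936 UMIs, TSC22D3 (ENSCAFG00000029920) 33217, ZBTB16 (ENSCAFG00000013538) 26521 and PER1 (ENSCAFG00000016984) 6112. KLF9 (ENSCAFG00000001867) had 695, so that its level in a single dog often rested on a handful of molecules.

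Cortisol crosses the cell membrane and binds the glucocorticoid receptor, the product of NR3C1, which is held ready in the cytoplasm by heat shock proteins and their co-chaperones. The bound receptor moves to the nucleus and switches genes on and off. FKBP5, a co-chaperone that lowers the affinity of the receptor for hormone, is itself a target, which makes it a feedback brake and a common readout of receptor activity in blood cells. TSC22D3 encodes GILZ, an anti-inflammatory leucine zipper protein, and PER1 is a core gene of the circadian clock that the hormone induces directly. KLF9 and ZBTB16 are zinc finger transcription factors, the latter also known as PLZF and as a lineage factor of innate-like lymphocytes. SGK1 is a kinase of ion transport and cell survival. In the blood, cortisol follows a daily rhythm and rises with stress.

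Blood leukocytes were obtained from 7 clinically healthy dogs and 10 dogs with osteosarcoma (OS), a malignant bone tumour, all client-owned and labelled as wild type. Per the methods of the study, the OS dogs had a primary tumour, had not been treated for it and lost the limb to amputation in the following weeks, and blood in EDTA tubes went onto a Ficoll gradient soon after it was drawn. Neither the labels nor the methods used here give the hour of the draw, a cortisol value or the use of steroids. Recorded ages spanned a wider range in the OS dogs than in the healthy dogs, and breed and housing were not controlled. Per the study, each group held males and females. All dogs were neutered except dogs 9 and 10 with OS, which were intact males. Sex and neutering were not terms in the tests below. Each dog gave 1 single-cell RNA-seq library, so the dog was the replicate throughout.

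Of the cell barcodes of the 17 libraries, 84345 lay within the limits on genes, UMIs and mitochondrial reads and 80407 were clustered once 3938 likely doublets had been removed. Clusters were named from fixed marker genes, and "T cells" and the other names below stand for such T cell-like clusters. The T cell clusters held 42429 cells, the B cell clusters 7008 and the myeloid clusters 24535, which comprised 14926 monocytes, 5920 neutrophils, 1243 dendritic cells and 2446 eosinophils or basophils. Total UMIs per library ran from 7740230 in dog 3 with OS, which had 1332 barcodes, to 56510134 in dog 1 with OS. Libraries shared 1124 of 91883 distinct barcodes (1.22%). The marker CD3E averaged 913 CPM (counts scaled to a common library total) in the T cell sums against 8.14 in the B cell and 7.59 in the myeloid sums, whereas the B cell marker CD79A was at 8523 CPM in the T cell sums and 6362 in the B cell sums, and so did not separate these lineages in this annotation.

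For each dog, the UMIs of a gene were summed over all cells of a population and scaled to CPM, and a sum cannot tell more RNA per cell from a larger share of cells with that RNA. Levels of different genes were not compared, since a 3′ count depends on the transcript. All 7 genes passed the filter of at least 10 counts in T cells, B cells, myeloid cells and monocytes, and 6 passed in neutrophils, where KLF9 had 1 UMI in all.

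The receptor gene NR3C1 was the steadiest of the 7 across dogs. In T cells its lowest, median and highest levels were 245, 310.3 and 359 CPM in the healthy dogs and 246, 291 and 352 CPM in the OS dogs. The groups overlapped nearly completely. In neutrophils the same 3 values were 563, 689 and 920 CPM in the healthy and 451, 607 and 954 CPM in the OS dogs. Its highest level was 1.47 times its lowest over the 17 dogs in T cells and 2.11 times in neutrophils, the narrowest and widest of the 5 populations. The fitted log2 fold change, OS over healthy, was -0.04 ± 0.10 (SE) in T cells, -0.15 ± 0.12 in B cells, -0.18 ± 0.13 in myeloid cells, -0.10 ± 0.10 in monocytes and -0.10 ± 0.19 in neutrophils.

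For FKBP5, 2 OS dogs stood apart from all others. In T cells the healthy dogs ran from 165 through a median of 270 to 325 CPM and the OS dogs from 185 through 285 to 926 CPM. Dog 3 with OS was at 926 CPM and dog 9 at 687 CPM, while the other 15 dogs lay between 165 and 424 CPM. The medians of the groups were close and the top of the OS range came from these 2 dogs.

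In B cells, FKBP5 was at 335 CPM in dog 3 and 323 CPM in dog 9 with OS. The other 15 dogs lay between 39.4 and 99.2 CPM, with a median of 65.4 CPM. The counts behind the high values were 110 UMIs from 69 B cells in dog 3 and 509 UMIs from 388 B cells in dog 9. Both dogs therefore lay above every other dog in a lymphocyte lineage other than T cells.

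As a ratio to the next dog, the gap was widest in myeloid cells. Over the median of the other 15 dogs, dogs 3 and 9 stood at 93.4 and 42.2 times in neutrophils and 14.5 and 13.9 times in myeloid cells. In myeloid cells healthy dogs ran from 59.9 through 112 to 254 CPM and OS dogs from 95.1 through 188 to 1656 CPM. Dog 3 was at 1656 CPM (5102 UMIs) and dog 9 at 1594 CPM (17746 UMIs). The next dog, dog 2 with OS, was at 280 CPM. In monocytes dog 9 was at 1775 and dog 3 at 1714 CPM, against 61.9 to 370.2 CPM in the other 15 dogs, of which healthy dog 7 was the highest. In neutrophils dog 3 reached 2149 CPM (239 UMIs from 66 cells) and dog 9 971 CPM (701 UMIs from 248 cells), dog 10 with OS followed at 471 CPM, and the median of the dogs other than dogs 3 and 9 was 23.0 CPM. FKBP5 thus ranked first and second in the same 2 dogs in 5 of 5 populations, of which monocytes and neutrophils were parts of the myeloid cells.

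**Figure D1:**
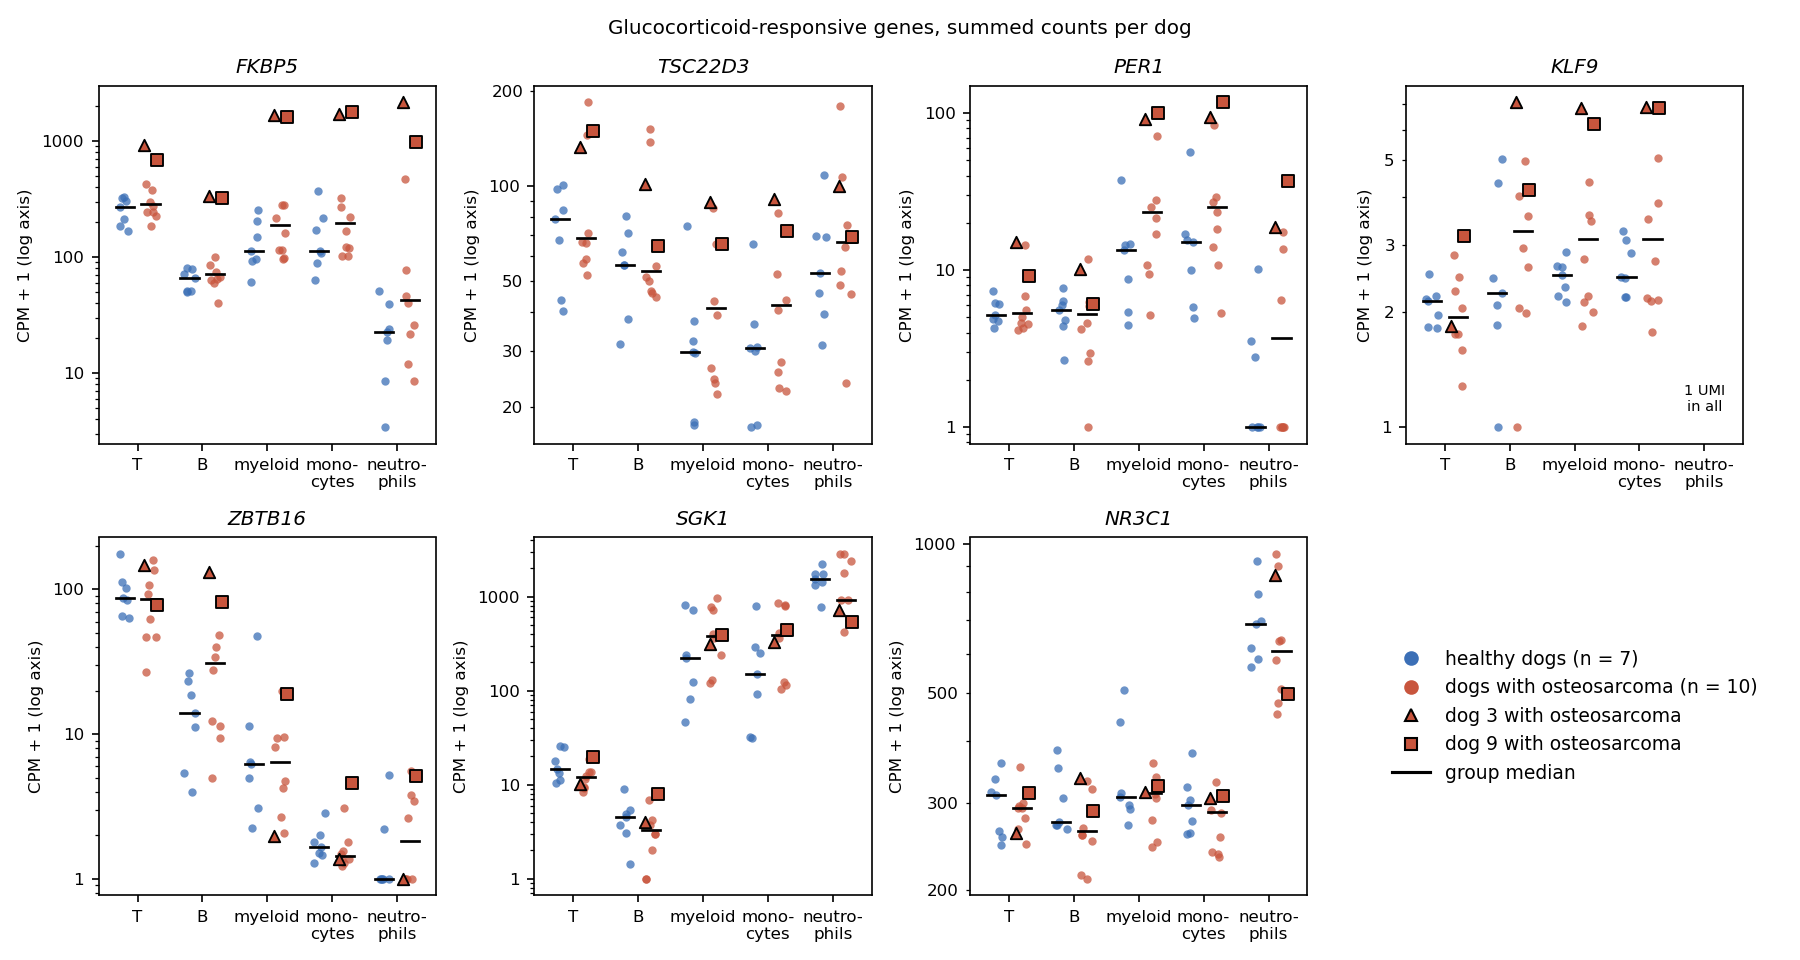
Summed level of each of the 7 genes per dog, as CPM + 1 on a log axis, in 5 populations; 1 point is 1 dog (7 healthy, blue; 10 with OS, red), black lines are group medians, and dogs 3 and 9 with OS have a triangle and a square. For FKBP5 these 2 dogs lay above all others in each population, for example at 1656 and 1594 CPM in myeloid cells where the other 15 dogs lay between 59.9 and 280 CPM, whereas for NR3C1 they lay among the rest.

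The library of dog 3 was the smallest of all in cells and total UMIs, and that of dog 9 was inside the range of the others in both. Median UMIs per cell were 4934 in dog 3 and 4631 in dog 9 with OS, and median mitochondrial shares 2.40% and 2.30%, inside the range of the other libraries. Neutrophils made up 20.8% of the myeloid cells of dog 3, and the shares of both dogs lay inside the 5.06% to 72.6% found elsewhere. In their B cell sums, the 11 monocyte markers together stood at 540 and 951 CPM, the lowest of all dogs and a middle value (all dogs 540 to 1380), and the 10 T cell markers at 268 and 327 CPM against 255 to 429 CPM in the others, with no T or B cell marker at 0. The 10 B cell markers summed to 8097 CPM in dog 3, below the 8328 to 11409 CPM of the others, and to 11382 CPM in dog 9. The same markers summed to 3967 to 9774 CPM in the T cell sums, so this sum does not tell B cells from T cells. In neutrophils, the monocyte markers summed to 4264 and 6963 CPM (others 1829 to 12023, 1 of 11 markers at 0), and the 16 neutrophil markers to 45337 CPM in dog 3, below the 52744 to 241189 CPM of the others, and 172069 CPM in dog 9. The part of these markers in the FKBP5 levels of neutrophils was not tested.

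FKBP5 of the 2 dogs was also read in finer cell classes, counting a dog only with at least 25 cells of the class and without trimmed scaling of the CPM. The B cell, monocyte and neutrophil classes held the same cells as those populations. T cell classes, dendritic cells and eosinophils or basophils were parts of the T cell and myeloid sums. Only NK-like and plasma cells lay outside, and there dog 3 had no value. The ranks below therefore largely restate those of the populations. Dog 9 ranked first or second in 10 of 10 classes and dog 3 first in 6 of 6, of 12 classes in all. In CD4 T cells dog 3 was at 1116 and dog 9 at 704 CPM, and the others were at 178 to 433 CPM. In CD8/NK cells the values were 994 and 591 CPM against 104 to 360 CPM. Dog 9 was at 561 CPM in dendritic cells (others at most 164 CPM) and at 109 CPM in plasma cells, where the other 10 dogs lay between 40.5 and 70.3 CPM. In eosinophils or basophils dog 9 had 2092 and dog 10 with OS 1058 CPM, and the median of the 14 dogs other than dog 9 was 40.7 CPM. Dog 10 was thus high in the granulocytes, while in monocytes it had 238 and in CD4 T cells 296 CPM, within the range of the healthy dogs.

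**Figure D2:**
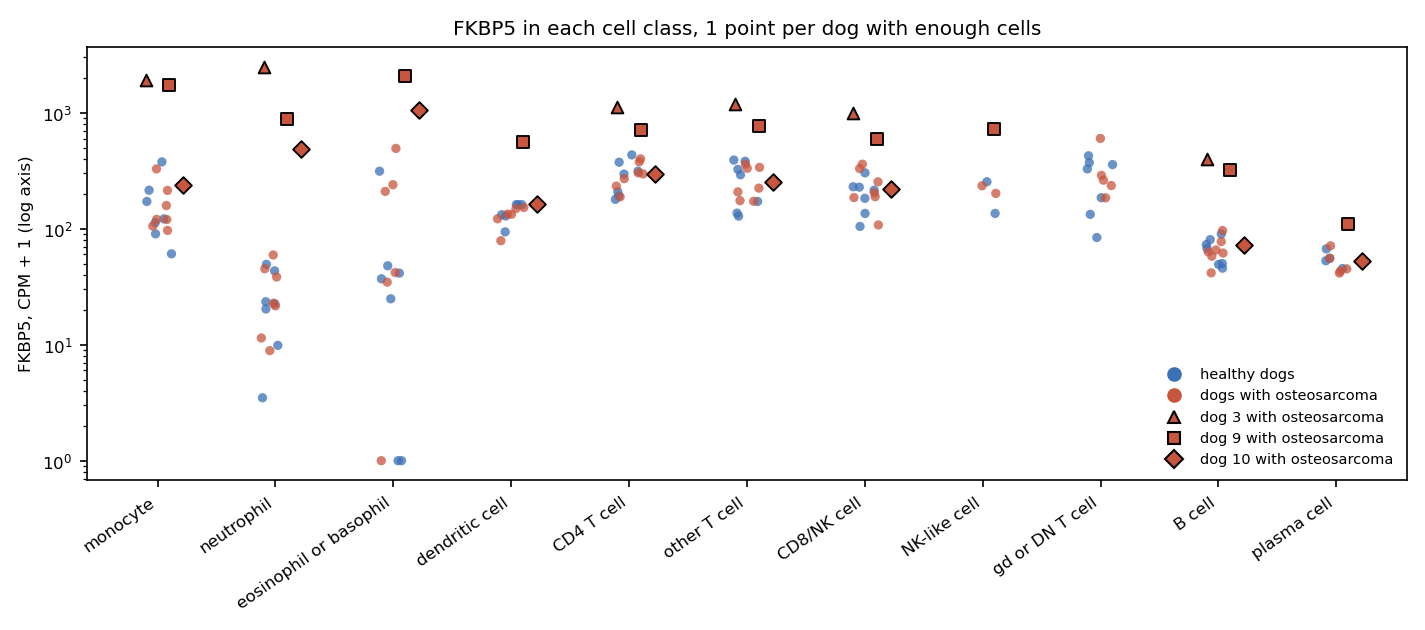
FKBP5 in 11 cell classes, as CPM + 1 on a log axis; 1 point is 1 dog with at least 25 cells of the class (blue healthy, red OS), and dogs 3, 9 and 10 with OS have a triangle, a square and a diamond. Dogs 3 and 9 lie at the top wherever they were measured, such as 1920 and 1742 CPM in monocytes where the next dog had 376 CPM, and dog 10 joins them in neutrophils and in eosinophils or basophils.

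TSC22D3 was high in more dogs than FKBP5, and not in the same order. In T cells the healthy dogs ran from 39.3 through 77.8 to 99.7 CPM and the OS dogs from 51.2 through 67.7 to 183 CPM. Dog 2 with OS was highest at 183 CPM, followed by dogs 9, 1 and 3 with OS at 149, 144 and 132 CPM. The other 6 OS dogs lay within the healthy range. In myeloid cells, dog 3 with OS had 88.3 CPM, dog 2 84.4 CPM, healthy dog 7 74.1 CPM and dogs 1 and 9 with OS 64.5 CPM each, above a median of 28.9 CPM in the healthy dogs. In B cells dog 1 with OS led with 151 CPM, and dog 3 had 101 and dog 9 63.5 CPM.

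PER1 was a gene of few counts in lymphocytes and of more in monocytes. In myeloid cells the healthy dogs ran from 3.45 through 12.5 to 36.5 CPM and the OS dogs from 4.203 through 22.4 to 98.8 CPM. Dogs 9, 3 and 2 with OS were highest, at 98.8, 90.2 and 70.8 CPM, and healthy dog 7 followed. In T cells dog 3 had 14.1 CPM (67 UMIs), dog 2 13.5 CPM (348 UMIs) and dog 9 8.18 CPM (121 UMIs), while the healthy dogs lay between 3.26 and 6.43 CPM. In B cells, where all dogs together gave 76 UMIs in the healthy and 52 in the OS group, no such step was seen (healthy 1.70 to 6.74, OS 0 to 10.7 CPM). Dogs 3 and 9 held the first 2 ranks for PER1 in 3 of 5 populations, namely myeloid cells and the monocytes and neutrophils that are parts of them. The neutrophil ranks rested on few molecules, with 33 UMIs of PER1 in all healthy and 62 in all OS dogs. Dog 3 was at 18.0 CPM there, close to dog 10 with OS at 16.5 CPM.

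KLF9 was low everywhere. In myeloid cells healthy dogs ran from 1.12 through 1.51 to 1.88 CPM (107 UMIs in all) and OS dogs from 0.84 through 2.12 to 5.84 CPM (255 UMIs in all). Dogs 3 and 9 with OS were again the highest with 5.84 and 5.21 CPM, before dog 2 with 3.39 CPM. In T cells the group medians were 1.14 and 0.95 CPM, and dog 3 was the 11th of 17 at 0.84 CPM while dog 9 was highest at 2.16 CPM.

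ZBTB16 differed widely between cell classes. Its mean over dogs was 331 ± 136 CPM (SD, n = 5) in NK-like cells, 330.1 ± 116 CPM (n = 15) in eosinophils or basophils and 239 ± 141 CPM (n = 17) in CD8/NK cells, and 59.3 ± 33.1 CPM in CD4 T cells. It was 0.86 ± 0.86 CPM in monocytes. In whole T cell sums the group ranges overlapped, with 62.1, 86.6 and 176 CPM (lowest, median, highest) in the healthy and 26.0, 84.2 and 158 CPM in the OS dogs, of which dogs 4, 5, 6 and 8 lay below the lowest healthy dog. CD8/NK cells made up 37.6%, 8.67%, 16.4% and 13.2% of the T cells of these dogs, in that order. In the healthy dogs they made up 12.7% to 38.6%. The part of this share in the T cell sums of ZBTB16 was not tested. In B cells the highest dogs were dog 3 with OS at 131 CPM, which rested on 43 UMIs, and dog 9 at 81.2 CPM, before dog 6 with OS at 47.6 CPM. The healthy dogs lay between 2.97 and 25.6 CPM there.

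SGK1 was high in neutrophils and monocytes. It averaged 1478 ± 810.3 CPM (SD, n = 17) in neutrophils and 347 ± 280.4 CPM in monocytes, and at most 65.7 CPM, in gamma-delta or double-negative T cells, in the 9 other classes measured in 5 or more dogs. In monocytes the healthy dogs ran from 30.8 through 148 to 790 CPM and the OS dogs from 103 through 387 to 859 CPM, so that the groups overlapped over most of their range. In neutrophils the order of the medians was the opposite, at 1539 CPM in the healthy and 926 CPM in the OS dogs. The fitted log2 fold change there was only -0.14 ± 0.36 (SE), and 4 of 10 OS dogs were above the healthy median. Dogs 3 and 9 with OS held no high rank for SGK1 in neutrophils (14th and 16th of 17) or in monocytes (8th and 5th).

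NR3C1 also differed in level between the classes, from 71.7 ± 16.5 CPM (SD, n = 11) in plasma cells to 864 ± 147 CPM (SD, n = 15) in eosinophils or basophils and 679 ± 203 CPM (n = 17) in neutrophils. FKBP5 had a median over dogs of 296 CPM in CD4 T cells, 158 CPM in monocytes and 52.0 CPM in plasma cells, and its means were 363 ± 231, 364 ± 560 and 57.3 ± 19.7 CPM (SD, n = 17, 17 and 11). Dogs 3 and 9 had the highest values in CD4 T cells and monocytes, and dog 9 in plasma cells, where dog 3 had no value. TSC22D3 was lowest in plasma cells among classes with 5 or more dogs, at 11.6 ± 9.98 CPM, and highest in CD8/NK and CD4 T cells at 92.1 ± 58.5 and 91.1 ± 43.5 CPM. PER1 was highest in monocytes, at 31.7 ± 35.6 CPM. These class levels are descriptions, since the classes came from clustering the same counts.

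**Figure D3:**
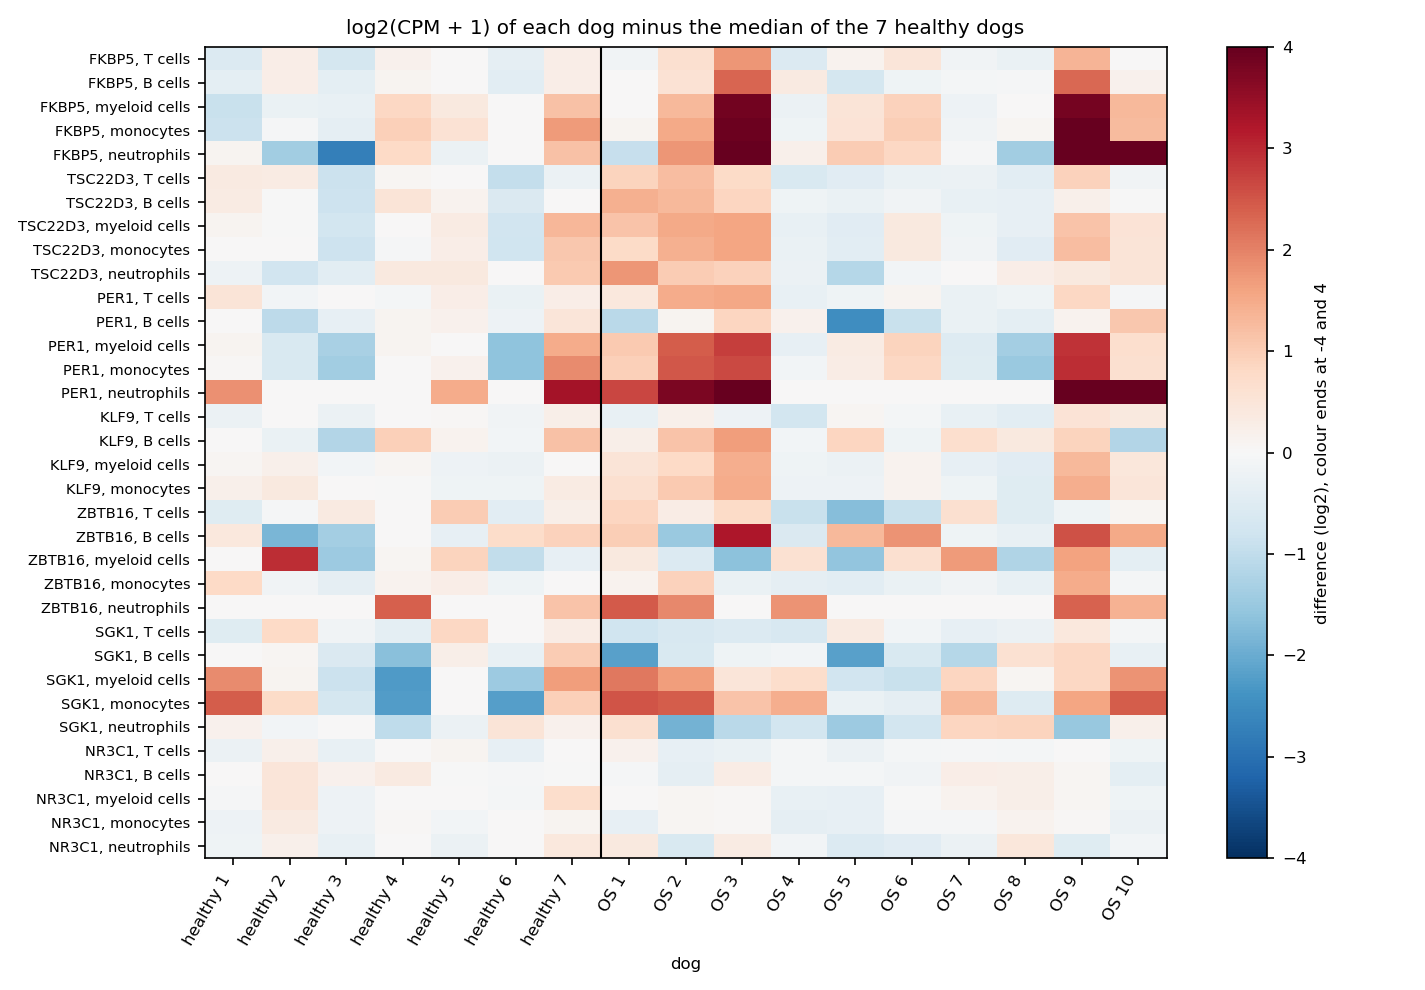
Difference of each dog from the median of the 7 healthy dogs, in log2(CPM + 1), for each gene and population (rows) and each dog (columns, a line between the groups); red is higher and blue lower, with the colours ending at -4 and 4. The FKBP5 rows are darkest red in the columns of dogs 3 and 9 with OS, PER1 in myeloid cells and monocytes is also red in dog 2 with OS, and the NR3C1 rows are nearly white.

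The comparison of OS with healthy dogs asked whether circulating leukocytes of tumour-bearing dogs carry a different level of these genes. No gene of either direction was called by edgeR's quasi-likelihood test at the thresholds of the study (adjusted p below 0.01 and absolute log2 fold change above 0.58), among 15234 genes in T cells, 12585 in B cells, 14742 in myeloid cells, 14122 in monocytes and 10689 in neutrophils, so that the share called was 0% in each. Unadjusted p fell below 0.05 for 500 (3.28%), 626 (4.97%), 824 (5.59%), 861 (6.10%) and 974 (9.11%) genes. DESeq2 called 0, 0, 1, 2 and 0. Among the 7 genes, 0 of 7 were under this unadjusted limit in T cells, 2 of 7 in B cells (ZBTB16 and FKBP5), 2 of 7 in myeloid cells (FKBP5 and PER1), 1 of 7 in monocytes (FKBP5) and 1 of 6 in neutrophils (FKBP5).

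FKBP5 had a positive fitted fold change in each population, which did not pass. The log2 fold change was 0.61 ± 0.29 (SE, p = 0.0518) in T cells, 0.89 ± 0.35 (p = 0.0182) in B cells, 1.74 ± 0.65 (p = 0.0141) in myeloid cells and 1.61 ± 0.66 (p = 0.0245) in monocytes by edgeR, with adjusted p between 0.738 and 1.00. In neutrophils it was 3.82 ± 1.03 (p = 0.00111, adjusted p = 0.488), and 7 of 10 OS dogs were above the healthy median there, as were 6 in T cells and 8 in myeloid cells. Without dogs 3 and 9 with OS, an omission chosen after their values were seen, the values were 0.15, 0.14, 0.34, 0.14 and 1.80 in the order T, B, myeloid, monocytes and neutrophils. In neutrophils that fit still held dog 10 with OS at 471 CPM. The next dog, dog 2 with OS, was at 76.1 CPM, and the median of the 15 dogs was 23.0 CPM. A fit without dog 10 as well was not run.

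PER1 had a log2 fold change of 1.48 ± 0.62 (SE) in myeloid cells (edgeR, p = 0.0263, adjusted p = 0.838), where 7 of 10 OS dogs were above the healthy median, 1.301 ± 0.64 in monocytes and 0.48 ± 0.32 in T cells. In B cells it was -0.001 ± 0.26. In neutrophils it was 1.26 ± 0.84 (p = 0.147), and 2.78 without healthy dog 7 and 0.63 without dog 9 with OS. Leaving out dogs 3 and 9 brought the PER1 value to 0.83 in myeloid cells, 0.52 in neutrophils and 0.21 in T cells.

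None of the remaining genes passed the test in any population. TSC22D3 had log2 fold changes of 0.43 ± 0.28 (SE) in T cells, 0.39 ± 0.26 in B cells and 0.51 ± 0.35 in myeloid cells, with 4, 4 and 6 of 10 OS dogs above the healthy median. Without dogs 3 and 9 they were 0.26, 0.37 and 0.31. The B cell value was 0.20 without dog 1 with OS and 0.24 without dog 2 with OS, and the myeloid value 0.84 without healthy dog 7. Those for KLF9 were 0.03 ± 0.32, 0.40 ± 0.55 and 0.73 ± 0.38, and -0.12, 0.16 and 0.30 without dogs 3 and 9, so the T cell value turned. The B cell value of KLF9 was also 0.16 without healthy dog 3. ZBTB16 had 1.39 ± 0.52 in B cells (edgeR, p = 0.0135, adjusted p = 0.977), which became 0.69 without dogs 3 and 9, and -0.13 ± 0.31 in T cells and -0.56 ± 0.68 in myeloid cells, the last of which turned to 0.66 without healthy dog 2. Of the 476 UMIs of ZBTB16 in the myeloid cells of that dog, 471 were in its eosinophils or basophils, 435 of its 1072 myeloid cells. SGK1 had -0.45 ± 0.23 in T cells, with 8 of 10 OS dogs below the healthy median (p = 0.0661), and 0.90 ± 0.60 in monocytes (p = 0.148), which ran from 0.71 to 1.64 with single dogs left out and was 1.64 without healthy dog 1. None of the 7 had an adjusted p under 0.488 in any of the 5 populations.

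**Figure D4:**
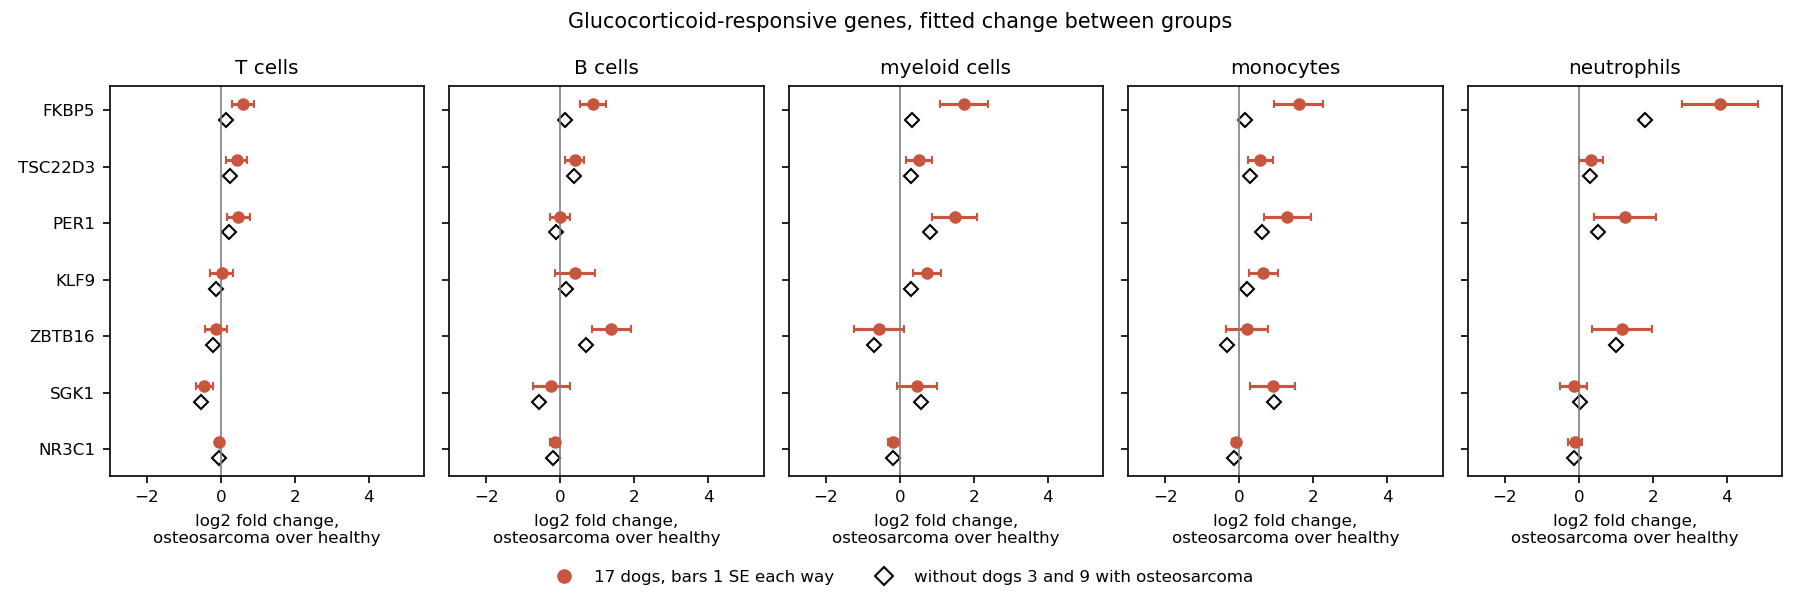
Log2 fold change of each gene, OS over healthy, fitted by edgeR in 5 populations (filled points, bars 1 SE each way, 17 dogs) and refitted without dogs 3 and 9 with OS (open diamonds). FKBP5 falls from 1.74 to 0.34 in myeloid cells and from 3.82 to 1.80 in neutrophils, where dog 10 with OS (471 CPM) was still in the fit. NR3C1 stays close to 0 in all panels. KLF9 was not fitted in neutrophils.

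Whether the change between the groups differed among T, B and myeloid cells was tested within dogs with limma, on differences of log2 CPM. No gene passed at adjusted p below 0.05 among 12464, 14228 and 12380 genes for T minus B, T minus myeloid and B minus myeloid cells (0% called). PER1 had the smallest unadjusted p of the 7, with a difference of -0.92 ± 0.45 (SE, p = 0.0465) for T minus myeloid cells and -1.44 ± 0.70 (p = 0.0412) for B minus myeloid cells, adjusted p = 1.00 and 0.998. For FKBP5 the T minus myeloid difference was -0.54 ± 0.37 (p = 0.142).

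Do the genes move together across dogs? Pearson's r and Spearman's rho of log2 CPM were computed for all 21 pairs in each of the 3 populations, with the mean of each group removed and 100000 permutations of dogs within groups (two-sided, Benjamini-Hochberg over the 63 relations). Over 17 dogs 7 of 63 pairs had an adjusted p of r below 0.05. The share of all gene pairs that would pass the same test was not computed, so this count has no background to be read against. Of the 7 pairs, 3 were pairs of FKBP5 in myeloid cells (with PER1, KLF9 and TSC22D3). Since dogs 3 and 9 with OS formed a cluster of their own for FKBP5, its correlations are given over the other 15 dogs. These 3 did not pass there.

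The firmest relation was that of TSC22D3 with PER1. In myeloid cells r was 0.91 (p = 1e-05, the smallest the permutations could give, adjusted p = 0.00063) and rho 0.88 (p = 6e-05, adjusted p = 0.00378). Within the 7 healthy dogs r was 0.97 (permutation p = 0.00337, adjusted p = 0.169) and within the 10 OS dogs 0.89 (permutation p = 0.00076, adjusted p = 0.00958), and without the 2 dogs farthest from the median of TSC22D3 (dogs 2 and 3 with OS) it was 0.88. In monocytes alone it was 0.94. The r was thus high in each group of dogs and with neutrophils set aside, although within the healthy dogs it did not pass. Healthy dog 7 stood above the other healthy dogs for both genes in myeloid cells. It had 74.1 CPM of TSC22D3 (next dog 36.3 CPM) and 36.5 CPM of PER1 (next dog 13.6 CPM). The r was not computed without this dog.

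In T cells the same pair had r = 0.80 (permutation p = 0.00033, adjusted p = 0.00416) and rho = 0.78 (permutation p = 0.00062, adjusted p = 0.0132). It was 0.52 within the healthy dogs and 0.89 within the OS dogs. Without dogs 2 and 9 with OS, r was 0.70 and its adjusted p 0.0592, so the call, though not the direction, rested on these dogs. In B cells, with few counts of PER1, r was 0.20 (rho 0.30).

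KLF9 joined them in myeloid cells. Its r was 0.84 with PER1 (permutation p = 4e-05, adjusted p = 0.00126; rho 0.78) and 0.78 with TSC22D3 (permutation p = 0.00027, adjusted p = 0.00416; rho 0.77). Without the 2 farthest dogs these were 0.75 and 0.69, both with an adjusted p of 0.0257. Within the OS dogs they were 0.96 and 0.94, and within the healthy dogs, whose KLF9 levels spanned only 1.12 to 1.88 CPM, 0.41 and 0.34. Whether the groups differed in these relations was not tested.

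FKBP5 passed with KLF9 in T cells and with no other of the genes over the 15 dogs other than dogs 3 and 9. Its r in myeloid cells was 0.64 with PER1 (permutation p = 0.0136, adjusted p = 0.143; rho 0.57), 0.57 with TSC22D3 (adjusted p = 0.214; rho 0.55) and 0.44 with KLF9 (adjusted p = 0.321; rho 0.46). In T cells r was 0.50 with TSC22D3, 0.44 with PER1 and 0.74 with KLF9, and the last of these had a permutation p of 0.00127 (adjusted p = 0.0257; rho 0.79, adjusted p = 0.0154), where over all 17 dogs the adjusted p was 0.203 for r and 0.0484 for rho in permutation tests. With its receptor NR3C1 it was 0.23 in T cells, -0.06 in B cells and 0.26 in myeloid cells.

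ZBTB16, SGK1 and NR3C1 had no pair with an adjusted p below 0.05. Of all 21 pairs, r was positive in 17 in T cells, 15 in B cells and 19 in myeloid cells, with medians of 0.30, 0.20 and 0.35 over 17 dogs and 0.38, 0.11 and 0.39 without the 2 farthest dogs of each pair. Over all pairs of genes tested, r was positive in 50.2%, 52.4% and 50.5% with medians of 0.0015, 0.0205 and 0.0045. Pairs share dogs and genes and are not independent of each other.

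**Figure D5:**
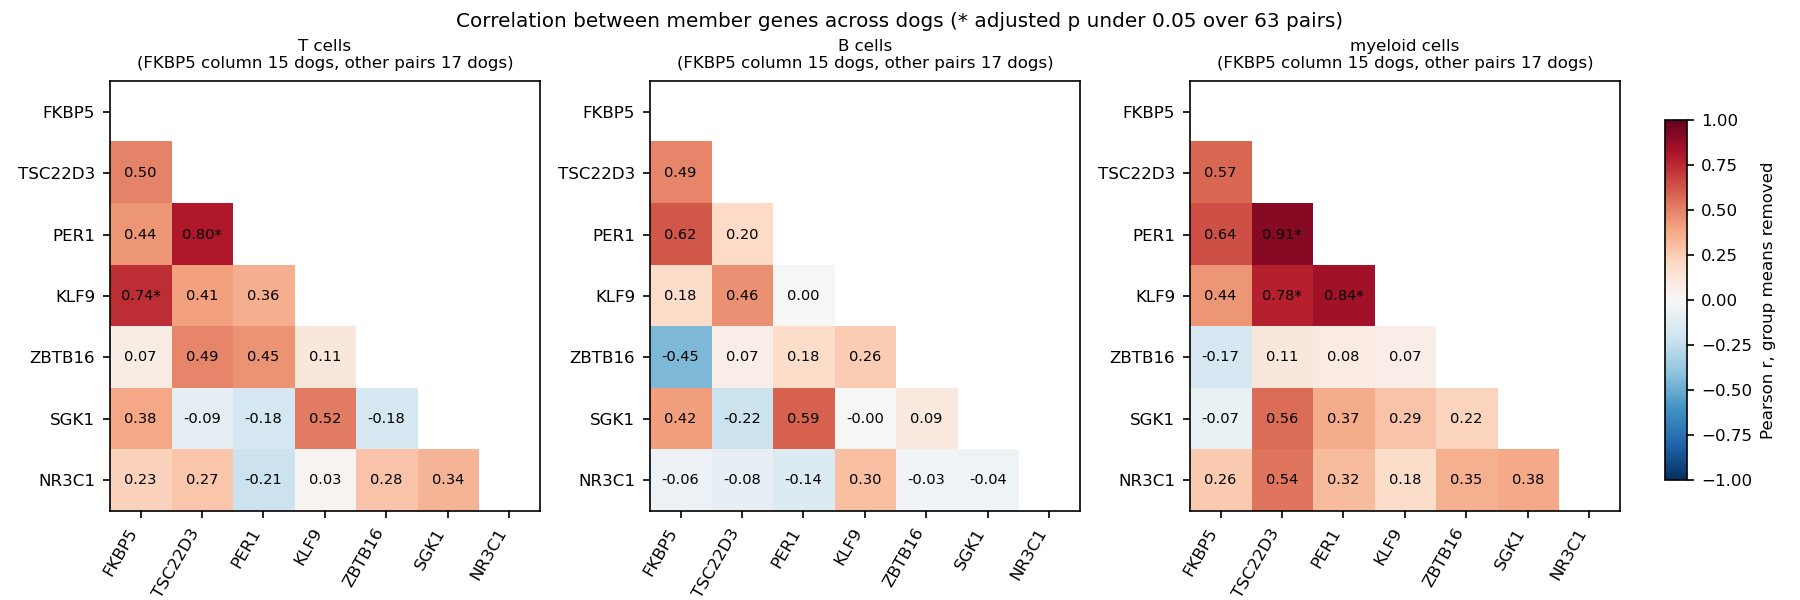
Pearson's r between the 7 genes across dogs in T cells, B cells and myeloid cells, group means removed; the FKBP5 column is over the 15 dogs other than dogs 3 and 9 with OS, all other pairs are over 17 dogs, and a star marks an adjusted p below 0.05 in its own set of 63 relations. TSC22D3, PER1 and KLF9 form a block of 0.91, 0.84 and 0.78 in myeloid cells, and TSC22D3 with PER1 has 0.80 in T cells.

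The same gene was next compared between populations of the same dogs. These are different cells but 1 library per dog, and over all genes the median r was 0.41 between T and B cells, 0.42 between T and myeloid cells and 0.31 between B and myeloid cells. TSC22D3 stood at 0.88, 0.80 and 0.76 (permutation p = 5e-05, 0.00058 and 0.00063, adjusted over 21 relations 0.000525, 0.00265 and 0.00265), and rho was 0.83, 0.82 and 0.83. Without the 2 farthest dogs of each relation its r was 0.92, 0.75 and 0.74. The permutation p-values of this comparison test r against 0, which most genes exceeded. Of all genes, 95.7%, 89.8% and 92.5% had a lower r than TSC22D3 over all dogs, in the same order. PER1 reached 0.82 between T and myeloid cells (permutation p = 0.00012, adjusted p = 0.00084, rho 0.90), above 92.0% of all genes. It was 0.81 there without the 2 farthest dogs, but 0.38 and 0.33 in the relations with B cells.

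FKBP5 of the 15 dogs other than dogs 3 and 9 correlated between T and myeloid cells at r = 0.76 (permutation p = 0.00203, adjusted p = 0.00874; rho 0.80), and at 0.41 between T and B cells and 0.39 between B and myeloid cells (adjusted p = 0.335 and 0.345). NR3C1, KLF9 and SGK1 passed in none of their relations. For ZBTB16, r was -0.02, 0.16 and -0.23, and for SGK1 between T and myeloid cells -0.15, below the median over all genes.

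With limma, each gene was regressed on FKBP5 across the 17 dogs with the group as a term. In T cells 30 of 15233 genes had an adjusted p below 0.05 (0.197%), 22 of them positive (0.144%) and 8 negative (0.0525%). There were 0 of 12584 in B cells (2209 at unadjusted p below 0.05) and 6 of 14741 in myeloid cells (0.0407%), all positive. None of the other 6 genes was among them in these fits, each on the FKBP5 level of the same population. Without dogs 3 and 9 with OS there was no gene in any of the 3 populations, and without dog 3 alone there were 3 genes in T cells, so these calls rested on the 2 dogs. In B cells the count was 1612 without dog 9 and 10 without healthy dog 2, so it too was set by single dogs. On the FKBP5 level of another population of the same dogs, 11 genes passed in T cells on that of B cells (0.0722%) and 1 on that of myeloid cells (0.00656%), 6 in B cells on that of T cells (0.0477%), and in myeloid cells 18 on that of T cells (0.122%) and 5 on that of B cells (0.0339%). Of the other 6 genes, PER1 was among the 18 (slope 1.74 ± 0.35, SE, adjusted p = 0.0367) and the rest passed in none of these fits, which were not repeated without dogs 3 and 9.

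Slopes of the other 6 genes on FKBP5 were positive for 6 of 6 in T cells and in B cells and 4 of 6 in myeloid cells, where 7296, 5532 and 6577 of all genes were positive (47.9%, 44.0% and 44.6%). Some of the B cell slopes rested on few molecules. All healthy and all OS dogs gave 27 and 26 UMIs of KLF9 there, 59 and 37 of SGK1, and 76 and 52 of PER1. Without dogs 3 and 9 the B cell count was 4 of 6, with slopes of -1.45 for ZBTB16 and -0.04 for NR3C1. Over all dogs, PER1 had the steepest of them in T cells and myeloid cells, at 0.74 ± 0.20 (SE, log2 per log2, adjusted p = 0.143) and 0.83 ± 0.18 (adjusted p = 0.0895). Slopes for TSC22D3 were 0.62 ± 0.22 (adjusted p = 0.206) and 0.39 ± 0.12 (adjusted p = 0.398). That of NR3C1 was 0.02 ± 0.07 in T cells. Without dogs 3 and 9 the T cell slopes were 1.12 for KLF9, 0.78 for TSC22D3 and 0.61 for PER1, so PER1 was no longer the steepest there. In myeloid cells it still was, at 1.11.

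At a mean of at least 10 CPM, the genes called in T cells with the steepest slopes were BTBD11 (1.27 ± 0.17, SE), NAPEPLD, an enzyme that makes N-acylethanolamine lipids (1.09), and PMAIP1, the pro-apoptotic NOXA (0.99 ± 0.20). BTBD11 had 441 and 283 CPM in dogs 3 and 9 with OS against 47.3 to 192 CPM in the other 15 dogs, and NAPEPLD 512 and 592 CPM against 97.3 to 424 CPM. PMAIP1 had 32.04 and 21.01 CPM against 5.27 to 32.01 CPM, where dog 2 with OS was level with dog 3 and above dog 9. At the same minimum level, negative slopes were led by ENSCAFG00000024271 (-0.84 ± 0.16), SCRN2 (-0.71 ± 0.14) and BHLHE40 (-0.56 ± 0.10, adjusted p = 0.0161). In myeloid cells BTBD11 also passed (0.91, at a mean of 3.49 CPM), and the leading genes above 10 CPM were APBA1 (0.65 ± 0.07), PFKFB2, which sets the rate of glycolysis (0.41 ± 0.07), and EXTL3 (0.41 ± 0.04). APBA1 had 828 and 628 CPM in dogs 3 and 9 against 79.9 to 174 CPM, and EXTL3 552 and 445 CPM against 90.5 to 206 CPM. No gene was called in T or myeloid cells without dogs 3 and 9. The genes named here were chosen by their slopes over all dogs, so their levels in these 2 dogs carry no independent support.

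Of 4497 genes at a mean of at least 20 CPM in T, B and myeloid cells, those whose pattern over the 17 dogs was most like FKBP5 were ADD3 (mean r of the 3 populations 0.77), MINDY2 (0.75), SSH2 (0.73), SESN1 (0.68) and ESYT2 (0.66). The likeness was not computed without dogs 3 and 9, and these dogs were not the highest for each of the 5 genes everywhere. In myeloid cells healthy dog 7 was highest for SSH2 (2092 CPM) and MINDY2 (216 CPM), and in B cells dog 3 had 79.2 CPM of ESYT2, rank 14 of 17. ADD3, a membrane skeleton protein, had 478 and 446 CPM in B cells of the 2 dogs against 272 to 368 CPM elsewhere. SESN1, a stress-induced inhibitor of growth signalling that is on the list of other glucocorticoid-induced genes, had 302 and 375 CPM in T cells against 167 to 266 CPM. SSH2, a cofilin phosphatase, reached 1447 and 1218 CPM in T cells against 489 to 1193 CPM.

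The wider pathway was read from 4 gene lists. Of 29 other genes known to be induced by glucocorticoids, 27, 24, 27, 27 and 26 were tested in T cells, B cells, myeloid cells, monocytes and neutrophils. None was called. The fold change was positive for 20 of 27, 17 of 24, 22 of 27, 25 of 27 and 19 of 26, where 49.5%, 48.4%, 46.8%, 51.1% and 52.4% of all genes tested were positive, and the list medians were 0.28, 0.26, 0.24, 0.31 and 0.29 against medians over all genes of -0.00, -0.01, -0.02, 0.01 and 0.02.

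At unadjusted p below 0.05, 3, 5, 4, 3 and 1 of these genes were higher in the OS dogs and 1, 0, 0, 0 and 0 lower. Over all genes 1.54%, 2.14%, 2.67%, 3.18% and 6.67% were higher at that level and 1.75%, 2.84%, 2.92%, 2.92% and 2.44% lower, so the neutrophil count (1 of 26) was under the share of all genes. TXNIP, a thioredoxin-binding arrestin that curbs glucose uptake, was above the healthy median in 10 of 10 OS dogs in T cells (136 ± 26.2 against 90.1 ± 29.7 CPM, SD, n = 10 and 7, log2 fold change 0.60 ± 0.17, adjusted p = 1.00) and in monocytes (127 ± 47.2 against 72.7 ± 18.2 CPM, 0.80 ± 0.21, adjusted p = 0.725). In monocytes it stood at 206 and 210.4 CPM in dogs 3 and 9 with OS, and at 53.4 to 135 CPM in the other 15 dogs. DDIT4, an mTOR inhibitor, had log2 fold changes of 0.91 ± 0.52 in T cells and 0.93 ± 0.39 in B cells, where dogs 3 and 9 had 33.5 and 38.1 CPM against 3.40 to 22.8 CPM in the others. CPT1A, the gate of mitochondrial fatty acid oxidation, had 0.78 ± 0.24 in B cells, with 9 of 10 OS dogs above the healthy median (adjusted p = 0.885). Genes of this and the other lists were named for the largest fold changes, so lopsided counts of dogs follow in part from that choice. The share of all genes with such counts is not given, so these counts do not show that the groups separate.

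PDK4, a kinase that turns cells from glucose to fat as fuel, had the largest change of the induced genes in myeloid cells, 2.23 ± 0.88 (SE, adjusted p = 0.838), and 2.07 ± 0.85 in monocytes. In myeloid cells, dog 3 with OS was highest at 64.3 CPM and dog 9 was at 3.23 CPM, with the other 15 dogs between 0 and 31.3 CPM, so the 2 dogs that shared high FKBP5 did not share high PDK4. TNFAIP3, a brake on NF-kB, had 0.83 ± 0.85 in myeloid cells. In neutrophils, STOM had 1.07 ± 0.39 and THBS1 1.03 ± 0.70, each with an adjusted p of at least 0.488.

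Genes of the receptor's chaperones, coregulators and hormone metabolism had list medians of -0.03, -0.11, -0.06, -0.05 and -0.13 in the same order, and of the 20, 20, 20, 20 and 18 tested none was called and 8, 6, 8, 7 and 7 were positive. Among them was NR3C2, the mineralocorticoid receptor, which also binds cortisol. Its log2 fold change was -0.48 ± 0.18 in T cells, -0.54 ± 0.18 in myeloid cells, -0.58 ± 0.17 in monocytes and -1.42 ± 0.52 in neutrophils, with 9, 9, 9 and 10 of 10 OS dogs below the healthy median (adjusted p = 1.00, 0.838, 0.725 and 0.488). NRIP1, a corepressor of nuclear receptors, had -0.55 ± 0.17 in T cells, where 10 of 10 OS dogs were below the healthy median, and -0.42 ± 0.18 in myeloid cells and -0.43 ± 0.21 in monocytes. NR3C2 and NRIP1 were likewise named for their large fold changes, so their counts of dogs carry no independent support. In B cells the chaperones HSP90AA1 and HSPA8 had 0.37 ± 0.13 and 0.33 ± 0.14, and in neutrophils HSP90AB1 had 0.69 ± 0.30.

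Circadian clock genes had list medians of -0.02, 0.06, -0.02, -0.07 and -0.07, with 0 called and 8, 11, 9, 7 and 6 positive of 19, 18, 18, 16 and 14 tested. CSNK1E, a kinase that times PER proteins, had 0.71 ± 0.19 in B cells (9 of 10 OS dogs above the healthy median, adjusted p = 0.820), 0.30 ± 0.16 in myeloid cells and 1.13 ± 0.47 in neutrophils. NFIL3 was above the healthy median in 10 of 10 OS dogs in myeloid cells (0.62 ± 0.31, adjusted p = 0.864) and in monocytes (0.58 ± 0.27), and had 0.57 ± 0.32 in neutrophils. CSNK1E and NFIL3 were also named for their large fold changes, so their counts of dogs carry no independent support. NPAS2 and CRY1 had 0.26 ± 0.25 and -0.18 ± 0.16 in T cells, CRY1 0.33 ± 0.17 in B cells and RORA -0.36 ± 0.31 in monocytes.

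Across dogs, 2 of the 19 clock genes passed in the regression on FKBP5 in T cells, both with negative slopes, where 0.197% of all genes passed and 0.0525% with a negative slope. No gene passed there without dogs 3 and 9 or with the replicate block, in which dog 9 was alone under its number and did not count towards the slopes. NR1D1, the clock repressor REV-ERB alpha, had a slope of -0.78 ± 0.12 (SE, adjusted p = 0.0137), with 2.74 and 2.09 CPM in dogs 3 and 9 with OS against 4.04 to 10.4 CPM in the other 15 dogs. BHLHE40, another repressor of the clock, had 16.9 and 35.4 CPM in these dogs against 25.4 to 53.0 CPM, so that only dog 3 lay outside the others. In myeloid cells and B cells no clock gene passed, and the slope of NR1D1 was -0.05 ± 0.15 and 0.48 ± 0.25.

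Immediate early and heat shock genes, which respond to handling as well as to stress, had list medians of 0.03, 0.23, 0.35, 0.31 and 0.01 and no call among 16, 16, 18, 18 and 16 tested. The fold change was positive for 9, 13, 17, 17 and 8 of these. In myeloid cells that was 17 of 18, beside 22 of 27 of the induced genes, and the part of the one in the other was not tested. In myeloid cells EGR1 and IER3 had 0.97 ± 1.05 and 0.84 ± 0.70, in monocytes 1.04 ± 1.06 and 0.83 ± 0.69, and in T cells HSPB1 and NR4A2 had 0.39 ± 0.22 and -0.29 ± 0.48. HSPB1 and NR4A1 had 0.58 ± 0.28 and 0.26 ± 0.19 in B cells, and IER2 and FOSL2 -0.51 ± 0.39 and -0.48 ± 0.27 in neutrophils. In monocytes, EGR1 was at 60.9 and 43.5 CPM in dogs 3 and 9 with OS, inside the 0.28 to 188 CPM of the other dogs.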

How the data were processed

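Per the labels, leukocytes from EDTA blood were separated on Ficoll, red cells were lysed and droplet 3′ single-cell libraries were made from 17 dogs. The authors aligned reads to CanFam3.1 with Cell Ranger 7.0.0 and deposited matrices of UMI counts per gene and cell; whether reads in introns entered these matrices is not given in the sources used here. The submitters' processing notes also name Seurat. Since no deposited cell annotation was used, cells were kept if genes detected lay between 200 and 4500, UMIs between 500 and 20000 and the mitochondrial share under 10%. Those with the highest Scrublet scores were removed as doublets, 3938 in all, and the rest were clustered with scanpy 1.11.5 and leidenalg 0.10.2 (2000 variable genes, 30 components corrected across dogs by an own implementation of the model of Harmony, 20 neighbours, resolution 1.0). The genes of all lists here were left out of the clustering. Clusters were named from marker lists, and platelets and erythrocytes were set aside.

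Counts were summed per dog over T cells, B cells, myeloid cells, monocytes and neutrophils, with at least 25 cells per dog and 10 counts per gene. Group differences were tested with edgeR 4.0.16 (quasi-likelihood F test, trimmed-mean scaling, a call needed adjusted p < 0.01 with a log2 fold change beyond 0.58 in either direction), and regressions on FKBP5 and differences between populations with limma 3.58.1 on log2 CPM (prior count 1, adjusted p below 0.05). Adjustment was by Benjamini-Hochberg over all genes tested. CPM of the 5 populations carry the trimmed-mean scaling and those of the finer cell classes do not. Steps across many genes were tested on simulated data, where the regression on FKBP5 made a larger share of false calls than its threshold allows, most of all in B cells. Alternatives were DESeq2 1.42.0, other scaling, filters, doublet handling, clustering and covariates, as well as omission of every dog singly.

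The 7 genes and all gene lists were chosen with earlier results of these data known. Named from the other lists are the 2 genes of largest absolute fold change per list and population at a mean of at least 10 CPM, from the regressions the 3 called genes of steepest slope in each direction at 10 CPM, and the 5 genes most like FKBP5 at a mean of at least 20 CPM; called clock genes were named after their values were seen, as were dogs 3, 9 and 10 with OS and the values of listed genes in them. Total UMIs per library limit the precision of low genes such as KLF9. Each dog is 1 animal, and the tests of group differences and slopes weigh them against the spread between animals.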

Additional observations from a re-analysis of the deposited data

Results flagged for a closer look

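In each group of dogs and each population, the highest and lowest dog was compared with the spread of its group by Dixon's ratio, in 70 groups, of which 11 held a dog that stood apart. The limit of the ratio is set for about 1 in 20 groups of normally distributed values. CPM are skewed, the populations overlap, and the 70 count KLF9 in neutrophils, which had no CPM. The 11 therefore cannot be read as an excess over that share. Healthy dog 7 stood above the other healthy dogs for TSC22D3 in myeloid cells (74.1 CPM, next dog 36.3 CPM) and monocytes (64.5 and 35.7 CPM), and for PER1 in myeloid cells (36.5 and 13.6 CPM), monocytes (55.5 and 15.97 CPM) and neutrophils (9.15 and 2.56 CPM). Neutrophils made up 72.6% of its myeloid cells, and its monocyte values were computed without them. Healthy dog 2 stood apart for ZBTB16 in myeloid cells (47.0 and 10.4 CPM), of which 435 of 1072 were eosinophils or basophils, a class with 330 ± 116 CPM of ZBTB16 (SD, n = 15), and in its monocytes ZBTB16 stood at 0.51 CPM. Healthy dog 1 stood apart for SGK1 in monocytes (789.6 and 287 CPM). Healthy dog 4 had 4.25 CPM of ZBTB16 in neutrophils, which was 1 UMI, before 1.22 CPM in the next dog. Among the OS dogs, those apart in neutrophils were dog 3 for FKBP5 (2149 and 971 CPM), dog 1 for TSC22D3 (179 and 106 CPM) and dog 9 for PER1 (36.0 and 18.0 CPM). Dogs 3 and 9 with OS were both high for FKBP5 in T, B and myeloid cells and monocytes, where the ratio, which measures the gap of 1 dog to the next, passed in no group.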

How the results depend on the processing

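Without dogs 3 and 9 with OS, the 2 dogs farthest from the median of FKBP5, 0 genes followed FKBP5 in T cells and in myeloid cells. Genes called between the groups stayed at 0 under the alternatives run, with recorded age as a covariate among them, except for DESeq2 in myeloid cells (1) and monocytes (2) and for single dogs left out, where counts ran from 0 to 2 in monocytes (2 without healthy dog 4) and 0 to 2 for differences between populations (2 without dog 1 with OS). Replicate numbers did not pair the dogs: deviations of the 7 same-numbered pairs correlated at -0.15 to 0.11 in T cells, -0.11 to 0.17 in B cells and -0.13 to 0.38 in myeloid cells, and 0, 2 and 0 of 7 healthy dogs correlated best with their own number. With the replicate block, 0 genes were called between the groups in each population, and 0, 5 and 0 genes followed FKBP5 in T, B and myeloid cells. Dogs 8, 9 and 10 with OS had no healthy dog of their number, so in these fits they did not count towards the estimates. The block therefore cannot decide whether the calls hold. Genes following FKBP5 numbered 19 in T cells and 2 in myeloid cells with total UMIs as a covariate, 2 in B cells and 20 in myeloid cells with no group term and 3 in B cells with a prior count of 5. On FKBP5 of another population they numbered 11 (of B cells) and 1 (of myeloid cells) in T cells, 6 (of T cells) in B cells and 18 (of T cells) in myeloid cells. With single dogs left out they ran from 3 to 43, 0 to 1612 and 2 to 7 in T, B and myeloid cells. Of the 63 pairs, 0 passed within healthy dogs and 4 without the 2 farthest dogs. The cause of these changes was not tested.

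Of the log2 fold changes of the 7 genes outside single dogs left out, 414 kept their sign. These include the setting of at least 10 cells per dog, which added no dog and could not change a value. Another 16 changed sign. For KLF9 in T cells they were -0.32 with the replicate block, -0.12 without dogs 3 and 9 (chosen for fold changes after seeing the data), -0.14 by limma, -0.16 in CD4 T cells and -0.17 in CD8/NK cells, and for ZBTB16 0.089 in CD4 T cells. PER1 in B cells had 0.020 by DESeq2, 0.021 with its size factors, 0.077 with doublets kept and 0.0029 with no correction across dogs. SGK1 in B cells had 0.28 with doublets kept and 0.34 with plasma cells, and 0.041 in neutrophils without dogs 3 and 9. ZBTB16 in monocytes had -0.44 with the replicate block, -0.33 without the 2 dogs and -0.14 by limma. With single dogs left out, sign changes fell within -0.13 to 0.16 (KLF9, T cells), -0.077 to 0.017 (NR3C1, T cells), -0.20 to 0.12 (PER1, B cells), -0.55 to 0.027 (SGK1, B cells), and for ZBTB16 -0.26 to 0.075 in T cells, -0.37 to 0.62 in monocytes and -0.86 to 0.66 in myeloid cells.

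Slopes on FKBP5 changed sign for NR3C1 in T cells (-0.0062 on FKBP5 of myeloid cells), for ZBTB16 (-1.45) and NR3C1 (-0.038) in B cells without the 2 dogs, for SGK1 in myeloid cells (0.081 with no group term, 0.14 with the replicate block, 0.24 on FKBP5 of B cells) and for ZBTB16 there (0.13 on FKBP5 of T cells, 0.27 of B cells). Single dogs left out gave -0.0056 to 0.10 for NR3C1 in T cells, and in myeloid cells -0.14 to 0.060 for SGK1 and -0.53 to 0.22 for ZBTB16. Of r with FKBP5, signs changed within healthy dogs for PER1 in T cells (-0.12), ZBTB16 in B cells (-0.13) and KLF9 in myeloid cells (-0.089), within OS dogs for NR3C1 in T cells (-0.34) and SGK1 in myeloid cells (0.017), without the 2 dogs for ZBTB16 (-0.45) and NR3C1 (-0.060) in B cells, and with monocytes for ZBTB16 (0.39) and SGK1 (0.022). Between populations they changed without the 2 farthest dogs for ZBTB16 (0.047, -0.14 and 0.23 for T with B, T with myeloid and B with myeloid cells) and KLF9 (-0.039 for T with B cells), and with monocytes for ZBTB16 (0.10 for B cells with monocytes).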
